A study of Mus musculus with 12 samples.

Results

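Genes that sense and clear extracellular ATP and adenosine were followed in mouse lung endothelial cells (MLECs) from mice made to delete the transcription factors Sp1 and Sp3 in the endothelium. The set held 10 genes of the 28689 in the expression table. They were 3 ATP-gated P2X channels (P2rx3, P2rx4 and P2rx7), 3 nucleotide-sensing P2Y receptors (P2ry1, P2ry2 and P2ry6), 2 surface enzymes that break down nucleotides (Entpd1, or CD39, and Nt5e, or CD73) and 2 adenosine receptors (Adora2a and Adora2b). The genes were chosen by name, with their values in these same libraries already known, so their differences are given as a description and without a p-value. The cells came from adult male dKO mice, VE-CAD-CreERT2+/Sp1 fl/fl/Sp3 fl/fl, in which a Cre driven by the VE-Cadherin promoter was activated by tamoxifen, and from littermate CTR mice, VE-CAD-CreERT2-/Sp1 fl/fl/Sp3 fl/fl, which carried the same floxed alleles and received the same tamoxifen. The sample labels call the CTR genotype WT. Each group had 6 libraries, and the number of mice behind a library was not given. The study states in general terms that its replicates were biologically independent, but no source ties a library to a mouse or culture. The p-values below therefore measure the spread between these libraries, which may be partly technical.

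ATP leaves cells through release channels and by vesicles, and it acts on P2X channels, which admit cations, and on P2Y receptors, which signal through G proteins. CD39 removes phosphates from ATP and ADP to give AMP, and CD73 turns AMP into adenosine, which acts on its own G protein-coupled receptors. In blood vessels, endothelial purinergic receptors take part in flow sensing and in the control of vascular tone, CD39 and CD73 limit platelet activation and inflammation, and P2X3 is best known from sensory neurons.

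Sp1 and Sp3 bind GC boxes and also the similar GT boxes. The promoters of the genes were searched for exact GC boxes only, so a window without one may hold other Sp sites. The search covered 250 bases before to 50 bases after the annotated start of each canonical transcript in GRCm39, on both strands, for the letters GGGCGG, which read CCGCCC on the other strand. A box was present in 5 of the 10 genes (50%), against 42.5% of 21770 protein-coding promoters and 59.6% of the 11315 that belonged to genes tested for expression. P2rx3, P2rx7, P2ry1, Adora2a and Adora2b held boxes. None was found in the windows of P2rx4, P2ry2, P2ry6, Entpd1 and Nt5e. Printed here are 4 stretches that show the range, with the box letters in capitals: the gene that was lowest in dKO relative to CTR (P2rx3), a gene of the same family that was higher (P2rx7), a higher gene without a box (P2ry6) and the promoter with the most boxes (Adora2b).
P2rx3, 30 bases at chr2:84865840-84865869, minus strand: aaaggtggtccaCCGCCCtggccctggact
P2rx7, 250 bases at chr5:122781692-122781941, plus strand: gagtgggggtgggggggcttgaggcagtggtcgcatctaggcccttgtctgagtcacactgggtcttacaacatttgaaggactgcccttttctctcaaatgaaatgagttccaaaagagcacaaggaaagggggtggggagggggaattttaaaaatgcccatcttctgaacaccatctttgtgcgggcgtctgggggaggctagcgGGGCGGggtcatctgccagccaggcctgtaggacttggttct
P2ry6, 250 bases at chr7:100613661-100613910, minus strand: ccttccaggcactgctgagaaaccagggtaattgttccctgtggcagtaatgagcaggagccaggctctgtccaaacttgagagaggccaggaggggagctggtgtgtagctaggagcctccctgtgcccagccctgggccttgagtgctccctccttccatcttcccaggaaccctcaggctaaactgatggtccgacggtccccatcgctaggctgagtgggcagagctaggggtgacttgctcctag
Adora2b, 250 bases at chr11:62139554-62139803, plus strand: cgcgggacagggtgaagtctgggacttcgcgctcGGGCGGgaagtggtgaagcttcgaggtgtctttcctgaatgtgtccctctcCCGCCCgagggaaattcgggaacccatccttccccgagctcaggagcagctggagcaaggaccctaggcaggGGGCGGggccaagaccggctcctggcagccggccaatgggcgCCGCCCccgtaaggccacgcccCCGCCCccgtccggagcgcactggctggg

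The P2rx3 box began 26 bases before the canonical start, inside the first exon and 5′ UTR of a longer annotated transcript of the gene. The most upstream annotated start of P2rx3 lay a further 1975 bases away, and its window held 0 boxes at a GC content of 60.7%. P2rx7 had a second box inside its transcript, 37 bases after the start. Adora2b had 6 boxes in all, 5 of them wholly in the printed upstream stretch, and a GC content of 70.0% with 28 CpG pairs. P2ry6, with no box in its window, had 4 CpG pairs. The annotated genes P2ry6, P2ry2 and Entpd1 also reach upstream of their windows, and other starts of these genes were not searched. These letters describe the windows searched, and no binding was measured.

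Levels are given as FPKM, fragment counts scaled to the length of the transcript and the size of the library. The low values of the table were whole multiples of 1 fragment, which gave totals of 16549824 to 17467059 fragments in the CTR libraries and 15523054 to 17938286 in the dKO libraries. Sp1 was 21.2 ± 1.77 FPKM in CTR and 10.6 ± 1.53 FPKM in dKO (SD, n = 6 each), and every dKO library lay below every CTR library (log2 fold change −0.95, SE 0.09, limma adjusted p = 5.68e-06; exact two-sided permutation p = 0.00216). Sp3 was 27.7 ± 2.31 and 25.0 ± 1.64 FPKM and did not pass the test over all genes (log2 fold change −0.14, SE 0.07, limma adjusted p = 0.0902; exact permutation p = 0.0455, with 2 of 6 dKO libraries below all CTR libraries), but it did without CTR replicate 6 (adjusted p = 0.0328). The extent of the deleted parts was not given, so transcript outside them may still have been counted. The name dKO is used here for the libraries so labelled, in which Sp1 was at 49.9% and Sp3 at 90.1% of the CTR mean. The endothelial identity named by the labels was checked with 10 markers, all of which were detected and all of which were higher in dKO (summed 188 to 309 FPKM in CTR and 358 to 483 in dKO). The libraries also held transcripts of other cell types, whose part in the Sp1 and Sp3 levels was not tested. By immunofluorescence, which reads protein and was done in aorta rather than lung, the study saw less Sp1 and Sp3 in the endothelium of dKO mice. Its supplement also lists Western blots of both proteins in isolated endothelial cells of CTR and dKO mice. All 9 tested macrophage markers of 10 were higher in dKO (summed 658 to 1190 FPKM against 1820 to 3780), 5 of 6 mesothelial markers were higher (28.8 to 38.6 against 66.3 to 146), and fibroblast and mural markers summed to 2470 to 3110 FPKM in CTR and 1300 to 1830 in dKO, with 2 higher and 2 lower of 9 tested. In every library the macrophage sum and the fibroblast and mural sum were each above the endothelial sum. These sums rest on different genes and do not give shares of cells. In such bulk samples, fewer cells of a type cannot be told apart from less RNA per cell.

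P2rx3, the P2X3 channel gene (chromosome 2, positions 84827456 to 84867806, minus strand), was the member that stood lowest in dKO relative to CTR. The 6 CTR libraries held 8.74, 13.3, 12.7, 11.9, 13.2 and 13.4 FPKM, and the 6 dKO libraries held 0.67, 0.813, 1.96, 1.14, 0.921 and 0.69 FPKM. The groups did not overlap, with a gap between 8.74 in the lowest CTR library and 1.96 in the highest dKO library. The means were 12.2 ± 1.78 and 1.03 ± 0.486 FPKM (SD, n = 6 each), so the dKO mean was 8.45% of the CTR mean. These levels rested on 425 to 634 fragments per CTR library and on 29 to 96 per dKO library. On the log2(FPKM + 1) scale the difference was −2.72 (SE 0.14), the fourth lowest of the 12467 tested genes. The added 1 shrinks the change of a gene this low: with a pseudocount of 0.01 the difference was −3.64.

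**Figure D1:**
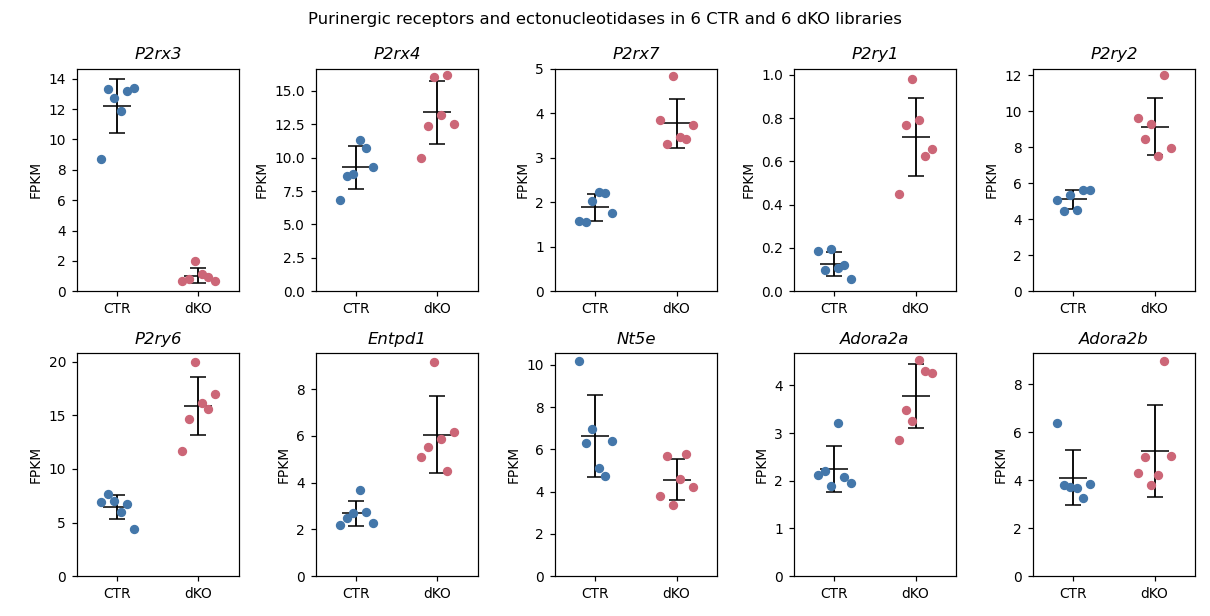
Levels of the 10 genes in each library. The vertical axis of each panel is FPKM and starts at 0, each point is 1 library (6 CTR in blue, 6 dKO in red), and the horizontal mark and bars are the mean and SD. P2rx3 runs from 8.74 to 13.4 FPKM in CTR and from 0.67 to 1.96 in dKO, whereas P2rx7, P2ry1, P2ry2, P2ry6 and Entpd1 lie wholly above their CTR range in dKO.

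P2rx4, the P2X4 channel (chromosome 5, 122845541 to 122867803), had a CTR range of 6.85 to 11.3 FPKM with a median of 9.04, and a dKO range of 10 to 16.2 FPKM with a median of 12.8. The ranges overlapped, and the means were 9.26 ± 1.58 and 13.4 ± 2.38 FPKM (log2 fold change 0.49, SE 0.13). P2rx7, the P2X7 channel that opens at high ATP and is known for driving the inflammasome in macrophages (chromosome 5, 122781942 to 122830400), ran from 1.55 to 2.22 FPKM in CTR with a median of 1.89, and from 3.32 to 4.84 in dKO with a median of 3.6. No library overlapped, and the means were 1.89 ± 0.306 and 3.77 ± 0.56 FPKM (log2 fold change 0.72, SE 0.09). P2rx7 and P2rx4 are neighbours on the same strand, 15.1 kb apart, and both were higher in dKO.

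The make-up of the P2X transcripts differed between the groups more than their sum. Summed over the 7 P2X genes, the level was 25.9 ± 3.09 FPKM in CTR and 21.1 ± 2.94 in dKO, with overlapping ranges of 20 to 28.6 and 17.2 to 25.5. P2rx3 made up 42.6% to 51.3% of that sum in the CTR libraries (mean 47.1% ± 3.45) and 3.34% to 7.67% in the dKO libraries (mean 4.78% ± 1.61). P2rx4 made up 35.6% ± 2.67 in CTR and 63.3% ± 3.91 in dKO, and P2rx7 made up 7.3% ± 0.817 and 18% ± 2.54. The ratio of P2rx4 to P2rx3 FPKM lay between 0.653 and 0.945 in CTR and between 8.18 and 18.2 in dKO. Shares of 1 sum are tied, so a lower P2rx3 share raises the others. The shares and the ratio thus restate much of the P2rx3 difference, which was known when the gene was chosen. Each of the other channels averaged at or below 1.06 FPKM in both groups. P2rx5, the most abundant of them over the 12 libraries though not within dKO, was 1.06 ± 0.19 FPKM in CTR and 0.735 ± 0.26 in dKO, and none of the 4 reached the level set for testing.

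**Figure D2:**
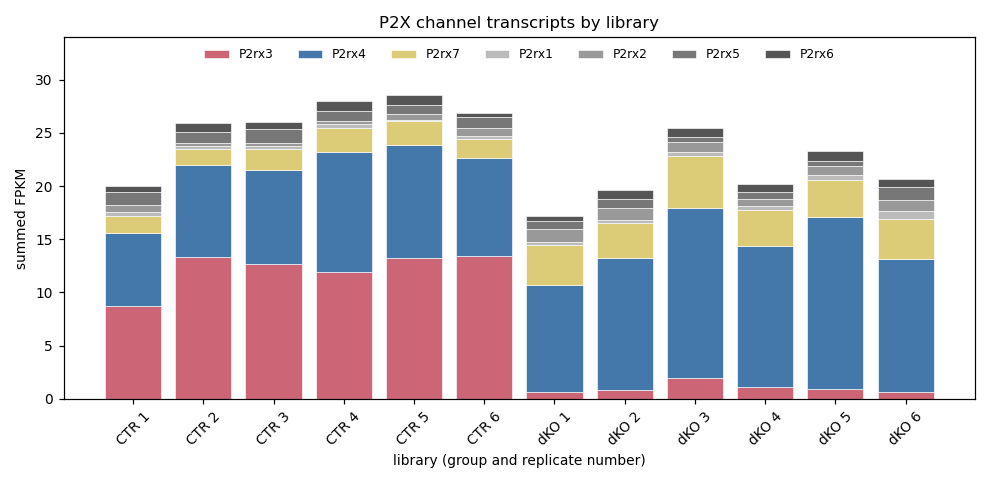
P2X channel transcripts by library. Each bar is 1 library, labelled by group and replicate number, and its height is the summed FPKM of the 7 P2X genes, with 1 colour or shade of grey per gene. P2rx3 (red) makes up 42.6% to 51.3% of the CTR bars and 3.34% to 7.67% of the dKO bars.

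All 3 P2Y receptor genes of the set were higher in dKO in every library. P2ry6, the UDP receptor (chromosome 7, 100585308 to 100624173), ran from 4.42 to 7.67 FPKM in CTR (median 6.84) and from 11.7 to 20 in dKO (median 15.9). Its means were 6.47 ± 1.14 and 15.9 ± 2.73 FPKM (log2 fold change 1.17, SE 0.13), and it was the most abundant of the 10 genes in dKO. P2ry2, the receptor for ATP and UTP (chromosome 7, 100640649 to 100663957), ran from 4.45 to 5.62 FPKM in CTR (median 5.22) and from 7.54 to 12 in dKO (median 8.88), with means of 5.11 ± 0.521 and 9.15 ± 1.61 FPKM (log2 fold change 0.72, SE 0.10). The P2ry6 and P2ry2 genes are also neighbours on the same strand, 16.5 kb apart. P2ry1, the ADP receptor (chromosome 3, 60910159 to 60916403), stayed under 1 FPKM everywhere. It was 0.0548 to 0.197 FPKM in CTR (4 to 14 fragments, mean 0.127 ± 0.055) and 0.45 to 0.982 in dKO (30 to 74 fragments, mean 0.713 ± 0.179), without overlap and with a ratio of means of 5.59. It was too low to be tested with the rest, and in a fit without the filter its log2 fold change was 0.60 (SE 0.07). Summed over the 7 P2Y genes, the level was 17.8 ± 1.11 FPKM in CTR and 36.5 ± 6.83 in dKO.

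The 2 enzymes of the CD39 and CD73 chain differed in opposite directions. Entpd1 (chromosome 19, 40600810 to 40731585) ran from 2.2 to 3.7 FPKM in CTR (median 2.6) and from 4.5 to 9.18 in dKO (median 5.7), with means of 2.69 ± 0.546 and 6.06 ± 1.64 FPKM and no overlap (log2 fold change 0.92, SE 0.14). Nt5e (chromosome 9, 88209089 to 88254146) ran from 4.73 to 10.2 FPKM in CTR (median 6.34) and from 3.39 to 5.76 in dKO (median 4.41). Its ranges overlapped, with means of 6.63 ± 1.96 and 4.57 ± 0.977 FPKM (log2 fold change −0.44, SE 0.16). The ratio of Entpd1 to Nt5e FPKM was between 0.215 and 0.721 in every CTR library and between 0.781 and 2.7 in every dKO library, so the groups did not overlap in this ratio (means 0.443 ± 0.18 and 1.43 ± 0.676).

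Adora2a, a receptor that raises cyclic AMP (chromosome 10, 75152560 to 75170628), ran from 1.89 to 3.22 FPKM in CTR (median 2.1) and from 2.86 to 4.53 in dKO (median 3.86), with means of 2.24 ± 0.489 and 3.78 ± 0.675 FPKM (log2 fold change 0.56, SE 0.11). A single CTR library, replicate 4 at 3.22 FPKM, made the ranges overlap, with the 1 dKO library below it, replicate 1 at 2.86. Adora2b, its low-affinity relative (chromosome 11, 62139804 to 62157279), ran from 3.26 to 6.38 FPKM in CTR (median 3.74) and from 3.79 to 8.98 in dKO (median 4.63). Its means of 4.11 ± 1.13 and 5.21 ± 1.9 FPKM lay within the spread of the libraries (log2 fold change 0.26, SE 0.17).

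In order of FPKM, the CTR libraries ran from P2rx3 through P2rx4, Nt5e, P2ry6, P2ry2, Adora2b, Entpd1, Adora2a and P2rx7 to P2ry1. P2rx3 was above P2rx4 in 6 of 6 CTR libraries. Of the neighbours in this order, the ranges were apart for P2rx7 and P2ry1 and overlapped for all others. In the dKO libraries the order was P2ry6, P2rx4, P2ry2, Entpd1, Adora2b, Nt5e, Adora2a, P2rx7, P2rx3 and P2ry1, and here only P2rx7 and P2rx3 had ranges that did not overlap. The spread between libraries also differed by gene. In CTR the coefficient of variation was lowest for P2ry2 (10.2%) and highest for P2ry1 (43.1%), and for P2rx3 it was 14.6% in CTR and 47.1% in dKO.

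Of the 10 genes, 9 passed the level filter of at least 1 FPKM in 6 libraries, and the fit over all tested genes called 8 of them, 6 higher and 2 lower in dKO. In the same fit 53.1% of all tested genes were called, 20.4% higher and 32.6% lower. With a change of over 1.5-fold as well, 17.9% of tested genes were called, and of the members 4 were higher (8.92% of tested genes) and 1 was lower (8.98%). With an absolute limit of 1.5 on the log2 scale, P2rx3 was the 1 member called, against 1.98% of tested genes in either direction and 0.553% lower. The study's methods set that limit on DESeq2 fold changes, while a legend in its supplement writes 1.5-fold. Here it was put on log2(FPKM + 1), which shrinks the changes of low genes, so these shares cannot be set against the study's own gene count. Groups without overlap were found for 5 of the 9, 4 above and 1 below CTR, against 27.4% of tested genes (11.3% above and 16.1% below). The median log2 fold change was 0.56 over the 9 and −0.10 over all tested genes. The genes were chosen with these values known, and nothing is read from the counts.

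Library dKO replicate 3 was the highest dKO library for 5 of the 10 genes (P2rx3, P2rx7, P2ry1, P2ry6 and Entpd1) and for 9 of the 10 macrophage markers, whose sum was 3780 FPKM there and 1820 to 2440 in the other dKO libraries. CTR replicate 1 had the lowest P2rx3 and P2rx4 levels of its group and the highest Nt5e and Adora2b levels. Without these 2 libraries the log2 fold change was −2.92 for P2rx3, 0.63 for P2rx7, 1.13 for P2ry6 and 0.77 for Entpd1, and it was −0.25 for Nt5e, −0.44 with all 12 libraries. The part of macrophage transcripts in the higher P2X, P2Y and CD39 levels was not tested. Fibroblast and mural markers summed to 2470 to 3110 FPKM in CTR and 1300 to 1830 in dKO, with 2 higher and 2 lower of 9 tested. The part of such cells in the lower P2rx3 and Nt5e levels was not tested either. For P2rx3, the sensory neuron markers Trpv1, Scn10a, Scn9a, Tac1 and Pou4f1 were under 0.1 FPKM in all 12 libraries, and the 10 markers of that list summed to 4.21 to 15.0 FPKM in CTR and 0.924 to 3.49 in dKO. Only 1 of these 10 was high enough to be tested, Avil, an actin-binding protein gene, and it was lower in dKO. Platelet and mast cell markers summed to 23.8 to 52.7 FPKM in CTR and 68.3 to 123 in dKO, with 1 higher of 3 tested.

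The rest of the purinergic pathway was described with 49 further genes, of which 26 were high enough to be tested. In dKO 13 of these rose, 3 fell and 10 did not pass the test, with 7 of the risen genes past 1.5-fold and a median log2 fold change of 0.28. Over all tested genes 53.1% were called, 20.4% higher and 32.6% lower, and 8.92% were higher by over 1.5-fold. The lists described next hold 1 to 7 tested genes each, and their counts stand beside these shares. With median-of-ratios scaling the split was 15 risen and 2 fallen, and over all tested genes it went from 2549 higher and 4065 lower to 3222 higher and 3010 lower.

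Among the remaining receptors, P2ry12, the platelet and microglial ADP receptor, rose from 0.878 ± 0.202 to 2.4 ± 1.37 FPKM (log2 fold change 0.77, SE 0.22, limma adjusted p = 0.0108), with dKO replicate 5 at 0.673 FPKM inside the CTR range. P2ry13, another ADP receptor and the most abundant of its list, was 3.77 ± 0.588 and 5.8 ± 3.2 FPKM and did not pass the test (log2 fold change 0.39, limma adjusted p = 0.23). Without dKO replicate 5, which held 1.76 FPKM, it did (log2 fold change 0.62, adjusted p = 0.0134). Both genes were highest in dKO replicate 3, the library with the highest macrophage marker sum. P2ry12 was 4.9 FPKM there and at most 2.43 in the other dKO libraries, and P2ry13 was 11.6 and at most 5.67. Without that library P2ry12 fell below the level filter and was not fitted. These 2 genes lie near each other and near P2ry14 on chromosome 3. P2ry14, the UDP-glucose receptor, was the other one to rise, so 2 of the 3 tested P2Y genes rose. Adora1, the A1 adenosine receptor, rose from 1.02 ± 0.335 to 3.38 ± 1.17 FPKM without overlap (log2 fold change 1.09, SE 0.16, limma adjusted p = 0.000131). Its share of the summed adenosine receptor FPKM was 13.9% ± 4.58 in CTR and 27.1% ± 7.87 in dKO, while that of Adora2b was 54.8% ± 6.02 and 41.0% ± 6.21. Adora3 stayed at or under 0.164 FPKM.

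Of the other nucleotide-cleaving enzymes 4 of 11 were tested, with 2 higher, 1 lower and none past 1.5-fold, against 53.1% of all tested genes called and 17.9% called past 1.5-fold. Entpd5, an endoplasmic reticulum UDPase and the most abundant of them, fell from 8.0 ± 1.41 to 5.72 ± 0.789 FPKM (log2 fold change −0.42, SE 0.11, limma adjusted p = 0.00648). Downstream, Ada, which deaminates adenosine to inosine, rose from 4.63 ± 0.906 to 10.7 ± 2.61 FPKM without overlap (log2 fold change 1.05, SE 0.15, limma adjusted p = 9.66e-05). Adk, which phosphorylates adenosine to AMP, did not pass (4.69 ± 0.735 and 5.32 ± 0.741 FPKM, adjusted p = 0.204), and the ratio of Ada to Adk FPKM was 0.651 to 1.47 in CTR and 1.65 to 2.39 in dKO. The nucleoside transporters differed in direction. Slc29a1, the equilibrative transporter of the plasma membrane and the most abundant of the list over the 12 libraries though not within dKO, fell from 8.81 ± 0.737 to 6.65 ± 0.382 FPKM (log2 fold change −0.36, SE 0.06, limma adjusted p = 0.000475). Slc29a3, the lysosomal one, rose from 5.55 ± 0.517 to 9.87 ± 1.31 FPKM (log2 fold change 0.73, SE 0.08, limma adjusted p = 2e-05).

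Of 6 genes of ATP release 2 were tested. Panx1, a channel that releases ATP, rose from 1.77 ± 0.175 to 2.41 ± 0.508 FPKM without overlap (log2 fold change 0.29, SE 0.09, limma adjusted p = 0.0187). It was no longer called without CTR replicate 1 and dKO replicate 3 together (adjusted p = 0.0516). Gja1, the connexin 43 gene and the most abundant of this list, was 6.96 ± 1.88 and 5.64 ± 1.31 FPKM and did not pass (limma adjusted p = 0.217). In the list of G protein and calcium coupling, 2 of 7 tested genes were higher and 1 was lower, against 53.1% called over all tested genes. Gnai2, the inhibitory G protein subunit that couples P2Y12 and A1 receptors, was the most abundant and rose from 116 ± 15.7 to 188 ± 15.4 FPKM without overlap (log2 fold change 0.70, SE 0.09, limma adjusted p = 6.69e-05). Gnas, the stimulatory subunit gene, was listed at only 0.899 ± 0.0886 and 0.715 ± 0.367 FPKM. It lies in an imprinted locus with overlapping transcripts, so this value is uncertain.

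Of the inflammasome genes downstream of P2X7, 2 of 3 tested rose, against 20.4% higher over all tested genes. Casp1, the caspase that matures interleukin 1β, went from 2.4 ± 0.584 to 7.3 ± 1.83 FPKM (log2 fold change 1.28, SE 0.15, limma adjusted p = 2.07e-05), and Pycard, the ASC adaptor, from 1.36 ± 0.375 to 2.88 ± 1.01 FPKM (log2 fold change 0.70, SE 0.15, limma adjusted p = 0.00206). Neither overlapped between the groups, and both were highest in dKO replicate 3, the library with the highest macrophage marker sum. Gsdmd, the pore-forming gasdermin D and the most abundant of the list, was 15.3 ± 1.89 and 17.7 ± 2.2 FPKM and did not pass (limma adjusted p = 0.0884), but it did without CTR replicate 4 (adjusted p = 0.0281) or without dKO replicate 1 (adjusted p = 0.0306) and with median-of-ratios scaling (adjusted p = 0.0281). Nlrp3, the sensor, was below the level filter at 0.363 ± 0.132 and 1.39 ± 0.684 FPKM.

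**Figure D3:**
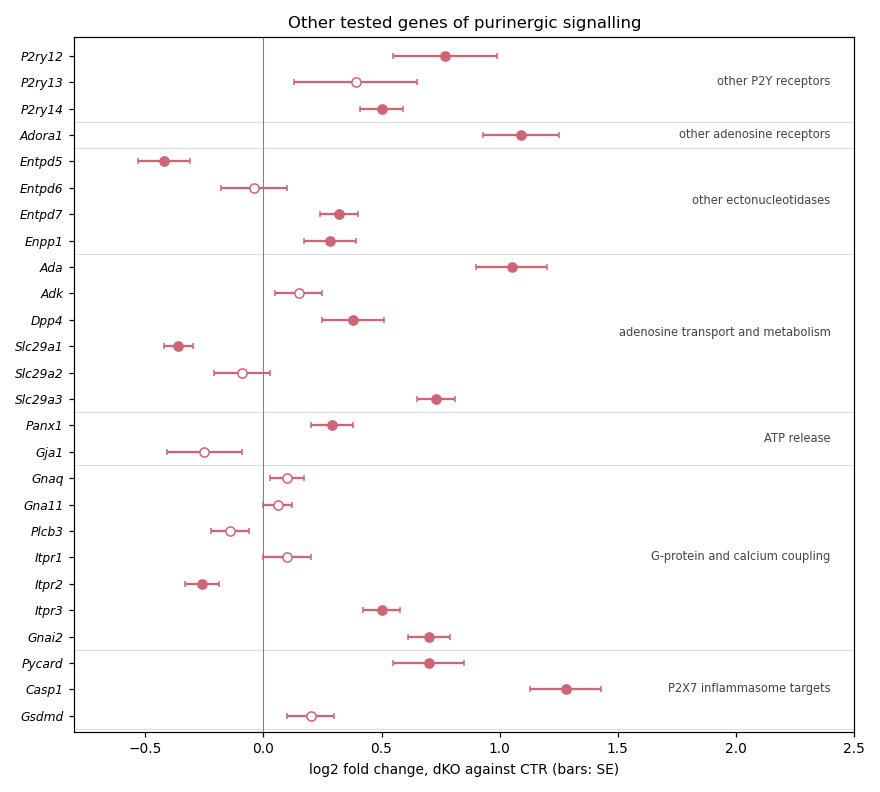
Log2 fold change of the 26 other tested genes of purinergic signalling. The horizontal axis is the log2 fold change of dKO against CTR on the log2(FPKM + 1) scale (6 libraries each), points are estimates, bars are SE, and filled points had a limma adjusted p under 0.05. Filled points lie right of 0 for 13 genes and left of 0 for 3 (Entpd5, Slc29a1 and Itpr2).

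The surroundings of P2rx3 on chromosome 2 were examined because position does not depend on the contrast. Of 30 genes annotated within 250 kb of P2rx3, 16 were in the table and 8 were tested, with 1 higher, 5 lower and 2 not called. Over all tested genes 20.4% were higher, 32.6% lower and 53.1% called in either direction. Slc43a3, a purine base transporter 38.6 kb away, fell from 106 ± 9.14 to 70.0 ± 15.0 FPKM without overlap (log2 fold change −0.61, SE 0.13, limma adjusted p = 0.00178). Slc43a1, an amino acid transporter at 129 kb, fell from 3.19 ± 1.02 to 1.28 ± 0.383 FPKM (log2 fold change −0.86, limma adjusted p = 0.000658). Tnks1bp1, at 10.5 kb on the other side, fell by 0.29 on the log2 scale (limma adjusted p = 0.00387). Timm10, a mitochondrial import chaperone, fell by 0.51 (limma adjusted p = 0.0258), which was lost without dKO replicate 3 (adjusted p = 0.0579), with median-of-ratios scaling (adjusted p = 0.0543) and without the level filter (adjusted p = 0.0549).

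Ssrp1, a histone chaperone subunit, starts on the opposite strand and overlaps P2rx3 by 294 bases. It fell from 65.9 ± 13.3 to 42.6 ± 8.89 FPKM (log2 fold change −0.61, SE 0.15, limma adjusted p = 0.00423). The opposite strand also holds Gm75408, a noncoding RNA gene without values here, whose span overlaps P2rx3 by 4393 bases. Whether the counting used strand was not given, so fragments in the shared bases cannot be assigned with certainty to any 1 of these genes. Other members also overlap noncoding genes on the opposite strand, among them P2rx4 (7242 bases) and P2rx7 (22708 bases). Ube2l6, which conjugates the interferon-induced modifier ISG15, rose from 9.23 ± 1.94 to 32.0 ± 7.63 FPKM at 187 kb (log2 fold change 1.68, SE 0.17, limma adjusted p = 7.15e-06). Rtn4rl2 (limma adjusted p = 0.0648) passed without dKO replicate 4 (adjusted p = 0.0122) or dKO replicate 5 (adjusted p = 0.0475) and after rescaling to TPM (adjusted p = 0.0427), and Serping1 did not pass (limma adjusted p = 0.903). P2rx3 itself, at −2.72, was lower than any of the 8. It was chosen with its values known, so nothing is read from that order.

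**Figure D4:**
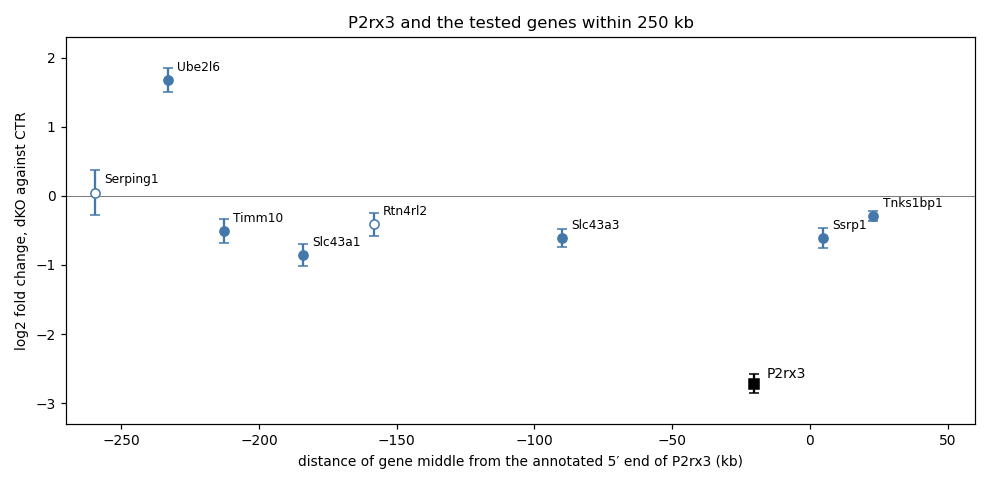
Log2 fold change of P2rx3 and of the 8 tested genes around it. The horizontal axis is the distance in kb of the middle of each gene from the annotated 5′ end of P2rx3, and the vertical axis is the log2 fold change of dKO against CTR with SE bars (6 libraries each). The square is P2rx3, filled circles had a limma adjusted p under 0.05 and open circles did not. P2rx3 at −2.72 lies below its neighbours, which range from −0.86 to 1.68, and it was chosen with its values known.

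The genes nearest to P2rx3 were found by the root mean square difference of log2(FPKM + 1), centred on each gene's mean over the 12 libraries. P2rx3 differed widely between the groups, so this measure mostly picks genes with a like difference between CTR and dKO. The 5 nearest of 12466 genes were Lrrc17 (0.24), a secreted leucine-rich repeat protein; Aldh1l2 (0.29), a mitochondrial folate enzyme; Slc7a5 (0.30), the large neutral amino acid transporter; Trib3 (0.37), a stress-induced pseudokinase; and Hmgn2 (0.38), a nucleosome-binding protein. Lrrc17 had 9.55 ± 2.06 FPKM in CTR and 0.628 ± 0.232 in dKO, and Slc7a5 had 96.3 ± 17.5 and 16.7 ± 1.37. Lrrc17 reached 1 FPKM only in the 6 CTR libraries, so it passed the level filter through the group where it was higher. Aldh1l2 had 33.5 ± 7.77 and 5.5 ± 1.77 FPKM, and Trib3 had 116 ± 41.8 and 19.6 ± 2.62. Hmgn2 had 35.6 ± 6.34 and 3.65 ± 0.441 FPKM, a level that is uncertain because near-identical copies of this gene can split its reads. The 5 genes had log2 fold changes from −2.97 to −2.42, with −2.72 for P2rx3. Within CTR they did not all follow P2rx3. CTR replicate 1 was the lowest of its group for P2rx3 (8.74 FPKM) and the highest for Hmgn2 (45.6 FPKM). None of the 5 is a purinergic gene. Of the other members the nearest to P2rx3 was Nt5e, at a difference of 1.23 (position 2994 of 12466), and the remaining tested ones lay between 1.57 and 1.96. Those remaining had higher means in dKO, which by itself sets them far from P2rx3 in this measure.

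**Figure D5:**
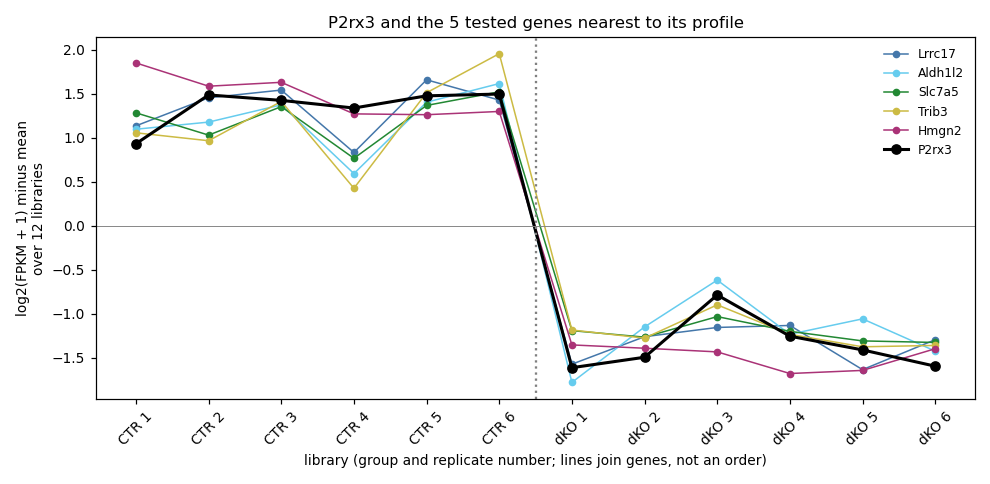
Profiles of P2rx3 and of the 5 tested genes nearest to it. The horizontal axis lists the 12 libraries by group and replicate number, and the vertical axis is log2(FPKM + 1) minus the mean of the gene over all 12. Each line is 1 gene, with P2rx3 in black, and the dotted line parts the groups. In all 6 genes every CTR library is above every dKO library, a trait that the measure favours.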

How the data were processed

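RNA from MLECs, selected on CD31 and then ICAM2, was sequenced in 6 CTR and 6 dKO libraries. The labels give lung as the tissue, although their protocol text names retina. Per the study's methods, reads were trimmed with Trimmomatic, aligned with STAR to mm39 and kept if unique, while the submitters' processing notes name Bowtie2 2.2.3, HISAT2 2.1.0 and TopHat2. The counting program, annotation and strand setting were not given in the sources used here. The authors deposited FPKM values per gene. The dKO columns, named after tamoxifen, were matched by exclusion, since the other 6 carry CTR names.

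Gene names and positions came from GENCODE M39 on GRCm39 (27706 of 28689 genes). The main test was limma 3.58.1 (R 4.3.3) with trended moderation on log2(FPKM + 1), two-sided, for the 12467 genes that reached 1 FPKM in 6 or more libraries, with Benjamini-Hochberg adjustment over all of them and a threshold of 0.05. Whole fragments were recovered for 28689 genes (tolerance 0.004 fragments) and served limma-voom as an alternative. Libraries of 1 group differed by at least 11.3 times the counting variance. Code was tested on simulated data.

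The 10 genes and all lists were chosen with earlier results of these data known. Named were the 10 genes, pathway genes past the threshold and 1.5-fold and the most abundant of each list, tested genes within 250 kb of P2rx3, the 5 nearest profiles, Sp1 and Sp3. P2ry14, Panx1, Entpd6, Adk, Adora3, Gnas, Nlrp3, Avil and the genes of the other observations were named after their values were seen. Alternatives were other pseudocounts, filters and scalings, TPM, voom, a replicate block and leaving out libraries.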

Additional observations from a re-analysis of the deposited data

Results flagged for a closer look

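In groups of 6 libraries, a value was singled out where its gap to the nearest other library was large for the range of the group by Dixon's criterion. Of 102 groups over 51 genes 13 were singled out, where chance gives about 5.1.

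Library dKO replicate 3 stood above the rest of its group for 6 genes. P2rx3 was 1.96 FPKM there against 0.67 to 1.14 in the other dKO libraries, and P2rx7 was 4.84 against 3.32 to 3.84. Entpd1 was 9.18 FPKM against 4.5 to 6.17, Slc29a3 was 12.4 against 8.84 to 9.84, and Pycard was 4.9 against 2.13 to 2.76. Trib3 was 24.6 FPKM against 17.4 to 20. The macrophage marker sum was also highest in this library, and its part in these values was not tested.

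CTR replicate 1 held 8.74 FPKM of P2rx3, below the 11.9 to 13.4 of the other CTR libraries, and 6.38 FPKM of Adora2b, above their 3.26 to 3.82. Adora2b also stood out in dKO replicate 5, at 8.98 FPKM against 3.79 to 5.02. Adora2a was 3.22 FPKM in CTR replicate 4 against 1.89 to 2.2.

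In dKO replicate 1, Slc29a2, an equilibrative nucleoside transporter, was 1.98 FPKM against 0.875 to 1.11, and Panx1, an ATP release channel, was 3.4 against 2.05 to 2.46. Timm10, near P2rx3, was 27.0 FPKM in CTR replicate 6 against 13.1 to 18.2.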

How the results depend on the processing

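Limma-voom on the recovered fragments called 6609 genes, against 6614 in the main test. With at least 5 FPKM required in 6 libraries, fewer genes were tested and 4222 were called over all (2514 lower), with 6 of the pathway genes called (4 higher). Without a level filter 5 pathway genes were lower, and after rescaling to TPM 6 were, in place of 3. Leaving out 1 library at a time gave 5772 to 6736 called genes (2260 to 2625 higher, 3469 to 4221 lower), 13 to 16 pathway genes (10 to 13 higher, 3 to 4 lower) and 5 to 7 neighbours of P2rx3. P2ry12, Dpp4 and Lrrc17 reached 1 FPKM in 6 libraries, so they could fall below the filter when one was left out. Of the 26 pathway genes 9 changed call in at least 1 of the 21 alternatives (Dpp4, Enpp1, Gna11, Gnaq, Gsdmd, Itpr2, P2ry13, Panx1 and Plcb3), as did 2 of the 8 neighbours (Rtn4rl2 and Timm10), and no called gene turned sign. Entpd6 and Serping1, near 0 and not called, turned sign in some alternatives (Entpd6 from −0.04 to 0.02 with median-of-ratios scaling, Serping1 from 0.05 to −0.08 without dKO replicate 4). Of those not covered above, Dpp4 was lost without CTR replicate 1 (adjusted p = 0.0519), Plcb3 was gained without CTR replicate 6 (adjusted p = 0.0406), and Enpp1 was lost without any 1 of 9 libraries (adjusted p from 0.0593 to 0.0822; CTR replicate 5 and dKO replicates 1 and 5 were the exceptions). The cause was not tested.

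The same replicate numbers occur in both groups. Correlations of deviations between libraries of the same number ran from −0.108 to 0.565, with 0.436 for number 1 and 0.565 for number 4. Libraries of different numbers were not compared in this way, so whether the numbers pair the libraries was not settled. With the replicate block 6955 genes were called (2675 higher, 4280 lower), with 15 pathway genes (12 higher, 3 lower) and 7 neighbours. In that fit Enpp1 was lost (adjusted p = 0.0586) and Rtn4rl2 was gained (adjusted p = 0.0362).

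For P2rx3 the log2 fold change ran from −2.83 to −2.67 when 1 library was left out and from −3.64 to −2.65 over the other settings, with −3.63 in limma-voom. For Adora2b it ran from 0.12 to 0.37 when 1 library was left out, for Nt5e from −0.51 to −0.32 and for P2rx4 from 0.41 to 0.56. Removing CTR replicate 1 and dKO replicate 3 together was chosen after the data were seen. It left 5652 called genes and 13 pathway genes (10 higher, 3 lower). Among the 10 genes depth is most limiting for P2ry1, with 4 to 14 fragments per CTR library, and for P2rx3 in dKO.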

Other observations

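Library dKO replicate 5 differed from the other dKO libraries in several purinergic genes, which were picked here after their values were seen. Il1b, the interleukin 1β gene, was 2.81 FPKM in this library and at most 0.238 in the 11 others. Nlrp3 was 2.45 FPKM there and 0.651 to 1.99 in the other dKO libraries, P2ry2 was 12 and Adora2b was 8.98, each the highest of the 12. P2ry12 at 0.673 and P2ry13 at 1.76 FPKM were each the lowest of the dKO group. The macrophage marker sum of this library was 1850 FPKM, within the dKO range.

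Slc28a2, a concentrative nucleoside transporter below the level filter, was 0.112 to 0.403 FPKM in CTR and 0.689 to 2.61 in dKO, and Enpp3, an ectonucleotide pyrophosphatase, was 0.684 to 1.13 in CTR and 0.208 to 0.499 in dKO. Neither gene overlapped between the groups, and neither was tested.

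Purine nucleoside phosphorylase is split over near-identical copies in the annotation, so its level is uncertain: Pnp was at most 0.201 FPKM and Pnp2 0.703 to 1.99 in CTR and 0.0 to 1.18 in dKO.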
